A study of Homo sapiens with 6 samples.

Results

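The 45 genes described here encode the proteasome, the chaperones that assemble it and the deubiquitinases bound to it. They were named as a list by their function and were chosen by a reading of their levels in the same comparison that is described below. All 45 were among the 58219 gene identifiers of the tables, and all 45 were among the 15765 genes with enough reads to be tested. Because the values of this comparison took part in the choice, the members' values are given as a description and no p-value is printed for them. Where a member is said to be past a threshold, this sorts it by the fit over all genes and is no independent evidence of a difference. The RNA came from U2OS, a human osteosarcoma cell line, in 6 libraries. In the E4F1 shRNA group, 3 libraries came from cells given a short hairpin RNA (shRNA) against E4F1. In the control shRNA group, 3 libraries came from cells given a scramble shRNA. Both groups were grown in DMEM with 10% FBS, were infected for 24 h and selected with puromycin for 48 h, and gave RNA 72 h after infection. Polyadenylated RNA was made into KAPA HyperPrep libraries and read on a NextSeq 500. The labels give 3 independent pools of cells and do not say whether equal numbers in both groups mark pools handled together. The design covers 1 cell line and the labels name no further shRNA against E4F1, so effects of E4F1 loss and of this hairpin cannot be told apart.

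The proteasome is the protease that degrades proteins tagged with ubiquitin. Its 20S core is a barrel of outer alpha rings and inner beta rings, and the cutting sites lie on 3 of the beta subunits. The 19S regulator caps the barrel, binds the ubiquitin chain, removes it, unfolds the substrate with a ring of ATPases and feeds it into the core. Deubiquitinases on the regulator, USP14 and UCHL5, trim the chain and can release a substrate before it is degraded. When proteasome activity falls, the transcription factor NFE2L1 is known to raise many proteasome genes together.

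E4F1 is a transcription factor with zinc fingers and a ubiquitin ligase activity. Its mRNA had 51, 53 and 41 reads in the E4F1 shRNA libraries, against 233, 286 and 297 reads in the control shRNA libraries. In TMM-scaled CPM, reads scaled to a library's total over all genes and then by edgeR's TMM factor, the mean was 2.94 ± 0.384 CPM with E4F1 shRNA and 17.4 ± 1.76 CPM with control shRNA (SD, n = 3 each). The log2 fold change was −2.57 (SE 0.14), and no E4F1 shRNA library came near a control library. The libraries held 14947085 to 16892139 reads in genes. Of 8 mesenchymal and osteosarcoma markers, 6 were at 1 CPM or more in every library, and their summed level was 4414 to 4570 CPM with E4F1 shRNA and 4967 to 5193 CPM with control shRNA. TWIST1 was at 0. Markers of other cell types were low. The summed level of 6 epithelial genes was 21.0 to 25.2 CPM with E4F1 shRNA and 24.3 to 28.2 CPM with control shRNA. That of 6 blood genes, with CD3E at 0, was 3.03 to 4.51 CPM with E4F1 shRNA and 2.34 to 6.67 CPM with control shRNA, and that of 5 endothelial genes was 3.62 to 3.80 CPM with E4F1 shRNA and 3.59 to 4.21 CPM with control shRNA. A score of 22 cell cycle genes, the mean of their log2 CPM, was 8.26, 8.26 and 8.15 in the E4F1 shRNA libraries and 7.92, 8.14 and 7.81 in the control shRNA libraries. The score was thus higher with E4F1 shRNA, with control library 2 nearest to that group.

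Most proteasome genes had nearly equal levels in both groups, and 2 stood apart. USP14 was 2.23-fold higher with E4F1 shRNA, PSMB6 was 2.15-fold lower, and 42 of the 45 members lay within 0.5 on the log2 scale of no change. The median log2 fold change was −0.05 over the members and −0.01 over all genes tested. At an adjusted p of 0.05 in edgeR's quasi-likelihood test over all genes, 2 members lay past the threshold as higher and 11 as lower, 13 of 45 in all. Of all 15765 genes tested, 28.9% lay past that threshold, 14.4% as higher and 14.4% as lower. All 3 E4F1 shRNA libraries stood above all 3 control libraries for 5 members, against 20.7% of all genes tested, and below them for 17 members, against 21.1%. Since the members were selected on this comparison, nothing is read from these shares. The RNA is a bulk measurement, in which fewer cells of a type and less RNA per cell cannot be told apart.

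**Figure D1:**
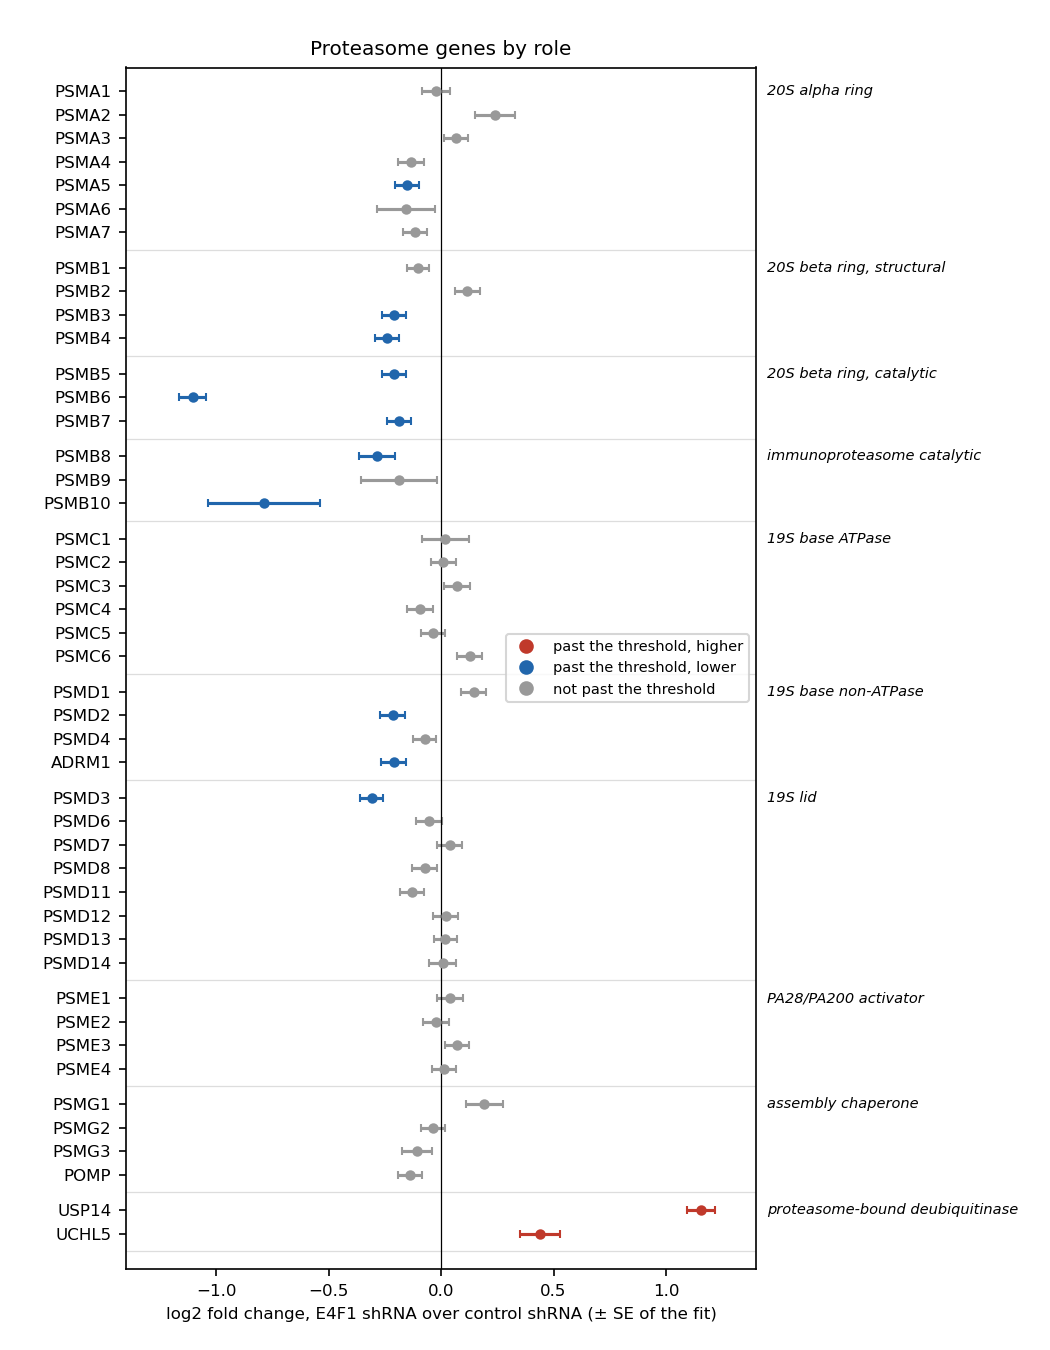
Log2 fold change of each of the 45 genes, E4F1 shRNA over control shRNA (n = 3 libraries each), with bars for the standard error of the edgeR fit, grouped by role from top to bottom. USP14 at 1.16 and PSMB6 at −1.10 are the points beyond 1 on either side, and the 6 ATPases and 4 activators sit within 0.13 of 0.

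The summed level of all 45 genes was 7282 ± 212 CPM with E4F1 shRNA and 7544 ± 59.8 CPM with control shRNA (SD, n = 3 each), a log2 ratio of −0.05. By role, the sum was lower in the constitutive catalytic beta subunits, at 305 ± 9.02 CPM with E4F1 shRNA and 390 ± 9.75 CPM with control shRNA (log2 −0.35). The sum was also lower in their immunoproteasome counterparts, at 35.0 ± 2.70 CPM with E4F1 shRNA and 43.3 ± 3.55 CPM with control shRNA (log2 −0.31). The alpha ring (log2 −0.08), the non-catalytic beta subunits (−0.10), the 19S regulator (−0.07) and the assembly chaperones (−0.06) lay near 0. Within the 19S regulator, the base subunits that are not ATPases were at −0.13. The deubiquitinases went the other way, at 242 ± 8.01 CPM with E4F1 shRNA and 116 ± 9.38 CPM with control shRNA (log2 1.06). Single genes weighed heavily in several of these sums. USP14 alone had a mean of 215 CPM with E4F1 shRNA and 96.7 CPM with control shRNA. PSMB6, among the catalytic subunits, had 39.9 CPM with E4F1 shRNA and 85.8 CPM with control shRNA. PSMB8, among the immunoproteasome subunits, had 30.1 CPM with E4F1 shRNA and 36.7 CPM with control shRNA. The base subunits that are not ATPases summed to 1317 CPM with E4F1 shRNA and 1436 CPM with control shRNA. Of these, PSMD2 alone had 718.8 CPM with E4F1 shRNA and 834.5 CPM with control shRNA.

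USP14 encodes a ubiquitin protease that binds the 19S base and trims ubiquitin chains from substrates held there. It lies at chr18:158383-214629 on the plus strand (GRCh38). Its level was 215, 222 and 210 CPM in the E4F1 shRNA libraries, against 99.3, 103 and 87.6 CPM in the control shRNA libraries. Reads numbered 3447, 3733 and 3442 with E4F1 shRNA, against 1487, 1670 and 1366 with control shRNA. Every E4F1 shRNA library was more than 100 CPM above every control library. The log2 fold change was 1.16 (SE 0.06), the highest among the 45 genes.

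UCHL5 encodes the other deubiquitinase of the regulator, which is held there by the ubiquitin receptor ADRM1. It lies at chr1:193012250-193060080 on the minus strand. Its level was 27.9, 27.7 and 23.7 CPM in the E4F1 shRNA libraries, against 18.8, 21.2 and 18.3 CPM in the control shRNA libraries. The groups did not overlap, with E4F1 shRNA library 3 and control library 2 nearest to each other, and the log2 fold change was 0.44 (SE 0.09). After adjustment for the cell cycle score it was 0.21, while that of USP14 was 0.99. Per kilobase of annotated transcript, USP14 stood at 8.86 ± 0.646 times UCHL5 with E4F1 shRNA and at 5.38 ± 0.283 times with control shRNA. Against PSMD1, a large scaffold subunit of the 19S base, the ratio of USP14 per kilobase was 0.483, 0.501 and 0.522 with E4F1 shRNA. With control shRNA it was 0.261, 0.252 and 0.232.

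In an earlier scan of these data the heptamer CTTATCT in 3′ untranslated regions (UTRs) had been related to higher levels with E4F1 shRNA, so it was looked up here, on the transcript's strand, and gives no independent support. It occurs once in each of 4 members, 8.89% of the 45, against 9.8% of the 13089 tested genes with an annotated 3′ UTR. It also occurs once in each of 8 of the 72 tested pathway genes outside the 45 (11.1%). The sites of the 4 members are shown, with those of PSMD5, a 19S assembly chaperone and the highest of the 8 by log2 fold change, and TAPBP, of class I antigen processing and the lowest of the 8. The capitals mark the heptamer, and each site reads 5′ to 3′ in the direction of the gene.
USP14: ccatcctttgcCTTATCTaacaaacattt
UCHL5: aaacgatattcCTTATCTgtaatttaaat
PSMD1: gatctcacttgCTTATCTgaagaagattg
PSMD12: atctgctatcaCTTATCTttttaaaacta
PSMD5: ggacatgcaatCTTATCTaaaagcctgct
TAPBP: aattctggtccCTTATCTgaaatgcttgg

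The sites are at chr18:211702-211730 (plus strand) for USP14, chr1:193016021-193016049 (minus) for UCHL5, chr2:231172535-231172563 (plus) for PSMD1, chr17:67339408-67339436 (minus) for PSMD12, chr9:120817575-120817603 (minus) for PSMD5 and chr6:33303576-33303604 (minus) for TAPBP, all on GRCh38 with UTRs from GENCODE 29. The USP14 site begins 429 bases after the stop codon and the UCHL5 site 313 bases after it. The log2 fold changes of the members with a site were 1.16 for USP14, 0.44 for UCHL5, 0.14 for PSMD1 and 0.02 for PSMD12. Those of the 8 pathway genes with a site were 0.95 for PSMD5, 0.81 for USP1, 0.17 for USP9X, 0.10 for UBA6, 0.05 for USP15, −0.08 for TXNL1, −0.11 for USP22 and −0.29 for TAPBP. The heptamer was thus present in genes that were higher, in genes with almost no difference and in a gene that was lower. USP14 and UCHL5 have annotated 3′ UTRs of 3345 and 4101 bases. The median was 302 bases over the members, 132 bases over the 11 lower ones and 1079 bases over the tested genes. The part of UTR length in these matches was not tested.

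**Figure D2:**
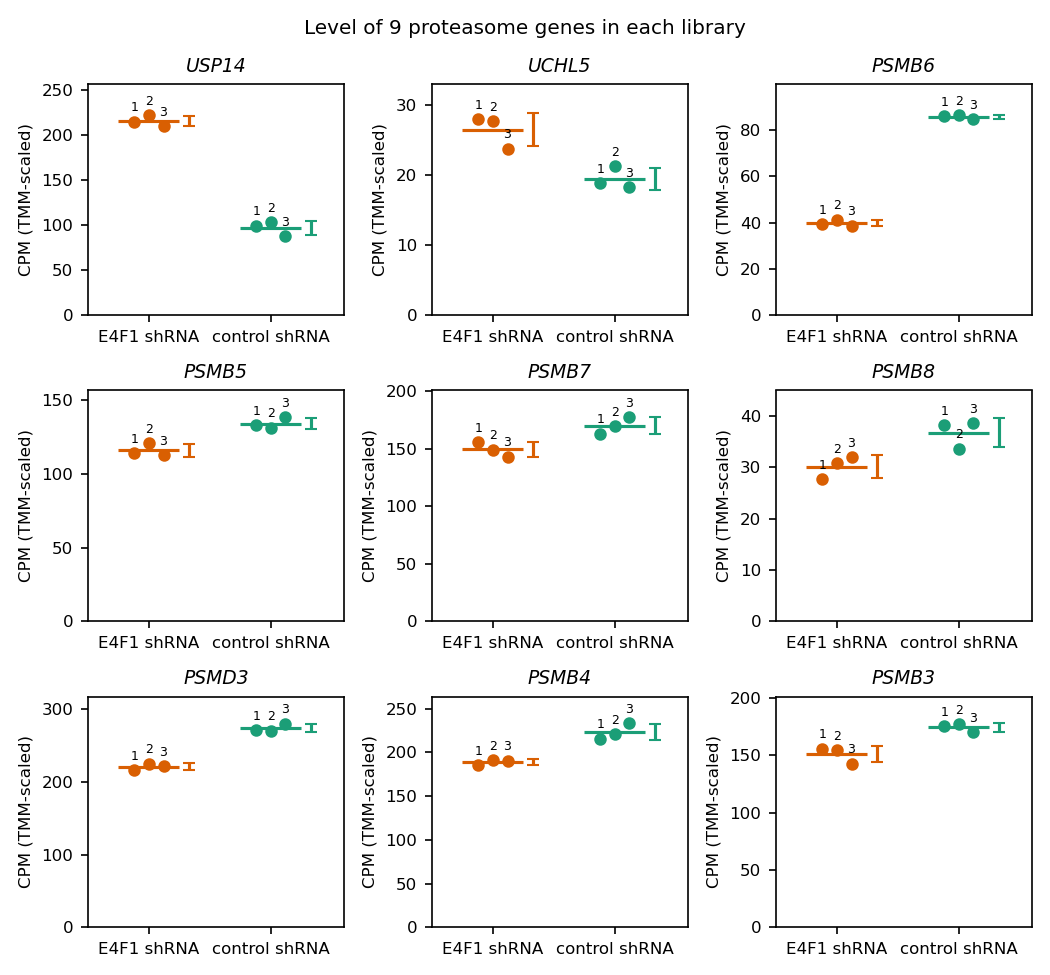
Level of 9 proteasome genes in each library, in TMM-scaled CPM, with library numbers, the mean as a line and the SD as a bar to the right (n = 3 each). In all 9 panels the E4F1 shRNA points lie entirely above (USP14, UCHL5) or entirely below (the other 7) the control shRNA points. All 9 genes are past the threshold, so this pattern says nothing about the other members. Of the 45 members, 5 stood entirely above and 17 entirely below, against 20.7% and 21.1% of all genes tested.

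PSMB6 carries the caspase-like site of the 20S core, which cuts after acidic residues. The gene lies at chr17:4796144-4798503 on the plus strand. Its level was 39.5, 41.4 and 38.8 CPM in the E4F1 shRNA libraries, against 86.0, 86.5 and 84.8 CPM in the control shRNA libraries. Reads numbered 634, 697 and 637 with E4F1 shRNA, against 1287, 1401 and 1322 with control shRNA. The 3 libraries of each group lay within 3 CPM of each other, and the groups were far apart. The log2 fold change was −1.10 (SE 0.06), the lowest among the 45 genes, and −1.14 after adjustment for the cell cycle score. The nearest tested gene within 20 kb, PLD2, a phospholipase, had a log2 fold change of −0.07.

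The other catalytic subunits differed far less. PSMB5, which carries the chymotrypsin-like site that bortezomib binds, had 114, 121 and 113 CPM with E4F1 shRNA, against 133, 131 and 138 CPM with control shRNA (log2 −0.21, SE 0.05). PSMB7, which carries the trypsin-like site, had 156, 149 and 143 CPM with E4F1 shRNA, against 163, 170 and 178 CPM with control shRNA (log2 −0.19, SE 0.05). Neither gene's groups overlapped, and both genes were past the threshold. PSMB7 was no longer past it without E4F1 shRNA library 2 (log2 −0.18) or 3 (log2 −0.15), or without control library 3 (log2 −0.16).

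Since each active 20S core takes up the catalytic subunits in equal number, their ratios per kilobase of transcript were compared. PSMB6 stood at 0.525, 0.520 and 0.522 times PSMB5 in the E4F1 shRNA libraries, against 0.982, 1.001 and 0.930 times in the control shRNA libraries. Against PSMB7, PSMB6 stood at 0.307 ± 0.0144 with E4F1 shRNA and at 0.581 ± 0.0288 with control shRNA. The ratio of PSMB5 to PSMB7 was 0.588 ± 0.0305 with E4F1 shRNA and 0.598 ± 0.0170 with control shRNA, a difference smaller than either SD. The change in proportion thus lay with PSMB6. These are ratios of mRNA, not of protein.

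The remaining beta subunits, which have no cutting site, and the alpha subunits, which form the gate and the docking surface for the regulator, differed little. PSMB4 had 185, 191 and 191 CPM with E4F1 shRNA, against 215, 221 and 233 CPM with control shRNA (log2 −0.24, SE 0.05). PSMB3 had 156, 154 and 143 CPM with E4F1 shRNA, against 176, 177 and 170 CPM with control shRNA (log2 −0.21, SE 0.05). The groups of both were apart. PSMB1 (log2 −0.10) and PSMB2 (log2 0.12) were not past the threshold, and PSMB2 was the only one of the 10 beta subunits with a positive value.

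Of the 7 alpha subunits only PSMA5 was past the threshold. It had 191, 207 and 200 CPM with E4F1 shRNA, against 225, 214 and 226 CPM with control shRNA (log2 −0.15, SE 0.05). This is a marginal call, lost when any library but control library 2 was left out (log2 −0.18 to −0.11). The other 6 had log2 fold changes of −0.16 (PSMA6) to 0.24 (PSMA2). PSMA2 had 16.9, 16.7 and 18.2 CPM with E4F1 shRNA, against 14.6 CPM in each of the control shRNA libraries, so its groups did not overlap although it was not past the threshold. PSMA6 and PSMA2 share 81.0% and 52.5% of their annotated transcript with other genes on the same strand, and 53.2% is shared in PSMA1. These shares are from GENCODE 29. Whether reads in such stretches were counted here was not tested, so the levels of these 3 genes are uncertain.

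The immunoproteasome subunits PSMB8, PSMB9 and PSMB10 take the places of PSMB5, PSMB6 and PSMB7 in cells exposed to interferon and in immune cells. PSMB8 had 27.6, 30.8 and 31.9 CPM with E4F1 shRNA, against 38.1, 33.5 and 38.5 CPM with control shRNA (log2 −0.29, SE 0.08). The groups were apart, with control library 2 nearest to the E4F1 shRNA libraries. Its call was lost without E4F1 shRNA library 1 (log2 −0.22) or control library 1 (log2 −0.24). PSMB9, the counterpart of PSMB6, had 2.87, 3.15 and 3.17 CPM with E4F1 shRNA, against 3.47, 3.40 and 3.59 CPM with control shRNA (log2 −0.19, SE 0.17) and was not past the threshold. PSMB10 had 26, 22 and 40 reads with E4F1 shRNA, against 56, 37 and 51 reads with control shRNA (log2 −0.79, SE 0.25). It was past the threshold although E4F1 shRNA library 3 lay above control library 2, and 45.3% of its transcript overlaps another gene on its strand. Its call was lost without E4F1 shRNA library 1 (log2 −0.72) or 2 (log2 −0.60), or without control library 1 (log2 −0.62) or 3 (log2 −0.74). After adjustment for the cell cycle score the log2 fold change of PSMB8 was −0.10 and that of PSMB10 −0.17. The part of the cell cycle difference in these values was not tested further.

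Per kilobase, the immunoproteasome forms made up 9.15%, 9.93% and 10.99% of the summed level of the 6 catalytic subunits in the E4F1 shRNA libraries, against 10.1%, 8.75% and 9.67% in the control shRNA libraries. The groups overlapped, and the difference of 0.53 percentage points was smaller than the spread between libraries (pooled SD 0.81). It depended on single libraries, at 0.046 points without E4F1 shRNA library 3, 0.15 without control library 2, 0.82 without control library 1 and 0.96 without E4F1 shRNA library 1. PSMB9 alone stood at 0.0836 ± 0.00499 times PSMB6 with E4F1 shRNA and at 0.0443 ± 0.00171 times with control shRNA. That ratio was higher with E4F1 shRNA while the level of PSMB9 was not.

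In the 19S regulator, the 6 ATPases that unfold substrates were all short of the threshold. Their log2 fold changes ran from −0.09 (PSMC4) to 0.13 (PSMC6), and no gene of the 6 had groups that did not overlap. PSMC4 had 124, 122 and 112 CPM with E4F1 shRNA, against 120, 127 and 134 CPM with control shRNA. PSMC6 had 184, 183 and 166 CPM with E4F1 shRNA, against 167, 158 and 162 CPM with control shRNA.

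Among the 4 subunits of the base that are not ATPases, 2 were past the threshold. PSMD2, a scaffold subunit that binds ubiquitin-like domains, had 732, 737 and 687 CPM with E4F1 shRNA, against 822, 791 and 891 CPM with control shRNA (log2 −0.22, SE 0.06). ADRM1, the ubiquitin receptor that anchors UCHL5, had 144, 157 and 150 CPM with E4F1 shRNA, against 162, 181 and 178 CPM with control shRNA (log2 −0.21, SE 0.06). Neither gene's groups overlapped, and the call of ADRM1 was lost without E4F1 shRNA library 1 (log2 −0.17). ADRM1 was thus slightly lower in the libraries in which its partner UCHL5 was higher. The ubiquitin receptor PSMD4 had a log2 fold change of −0.07. PSMD1, with 301, 299 and 272 CPM with E4F1 shRNA and 257, 276 and 255 CPM with control shRNA (log2 0.14, SE 0.06), was not past the threshold, and E4F1 shRNA library 3 lay below control library 2. PSMD1 was past it as higher when either of these 2 libraries was left out (log2 0.20 without E4F1 shRNA library 3 and 0.19 without control library 2). With every library kept, it was also past it in some alternative runs. These were the runs without a low-count filter, with library totals only, with DESeq2's Wald test and with the replicate number as a block.

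The lid holds PSMD14, the metalloprotease that removes ubiquitin chains as the substrate enters. PSMD3, a structural subunit, was the only one of 8 lid genes past the threshold. It had 216, 225 and 222 CPM with E4F1 shRNA, against 270, 270 and 280 CPM with control shRNA (log2 −0.31, SE 0.05), and its groups were far apart. Adjusted for the cell cycle score it was at −0.28. PSMD14 had 206, 224 and 194 CPM with E4F1 shRNA, against 216, 203 and 201 CPM with control shRNA, in full overlap (log2 0.01). The other 6 ran from −0.13 (PSMD11) to 0.04 (PSMD7).

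The alternative caps of the 20S core had log2 fold changes within 0.07 of 0, and none was past the threshold. PSME1, which forms the interferon-inducible PA28 ring with PSME2, had 58.7, 58.3 and 58.7 CPM with E4F1 shRNA, against 56.4, 57.5 and 57.0 CPM with control shRNA (log2 0.04, SE 0.06). Its groups were narrowly apart. PSME2 was at −0.02, PSME3, the nuclear PA28 subunit, at 0.07, and PSME4, the large PA200 cap, at 0.01. The 4 assembly factors were also short of the threshold. POMP, which is built into each new 20S core and degraded inside it, had 116, 125 and 120 CPM with E4F1 shRNA, against 134, 130 and 133 CPM with control shRNA (log2 −0.14, SE 0.05), with groups apart. PSMG1 and PSMG2, which form a dimer that assembles the alpha ring, were at 0.19 and −0.04, and PSMG3, of a further such dimer, at −0.11. PSMG1 changed with the setting. It was past the threshold as higher without E4F1 shRNA library 3 (log2 0.26) or without control library 2 (log2 0.27), and at −0.02 after adjustment for the cell cycle score.

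Levels per kilobase of annotated transcript spanned from PSMA7, at 355 CPM per kb with E4F1 shRNA and 385 with control shRNA, to PSMC1, at 2.53 with E4F1 shRNA and 2.495 with control shRNA, and PSMB10, at 1.47 with E4F1 shRNA and 2.54 with control shRNA. USP14 stood at 43.8 CPM per kb with E4F1 shRNA and 19.7 with control shRNA, and PSMB6 at 46.8 with E4F1 shRNA and 101 with control shRNA. With E4F1 shRNA these 2 genes thus had nearly equal levels per kilobase. PSMC1 has 13 annotated pseudogenes by name, and reads that match several places were in no gene, so its low level is uncertain. The same holds for PSMA6 and PSMA2, with 4 and 3 named pseudogenes.

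**Figure D3:**
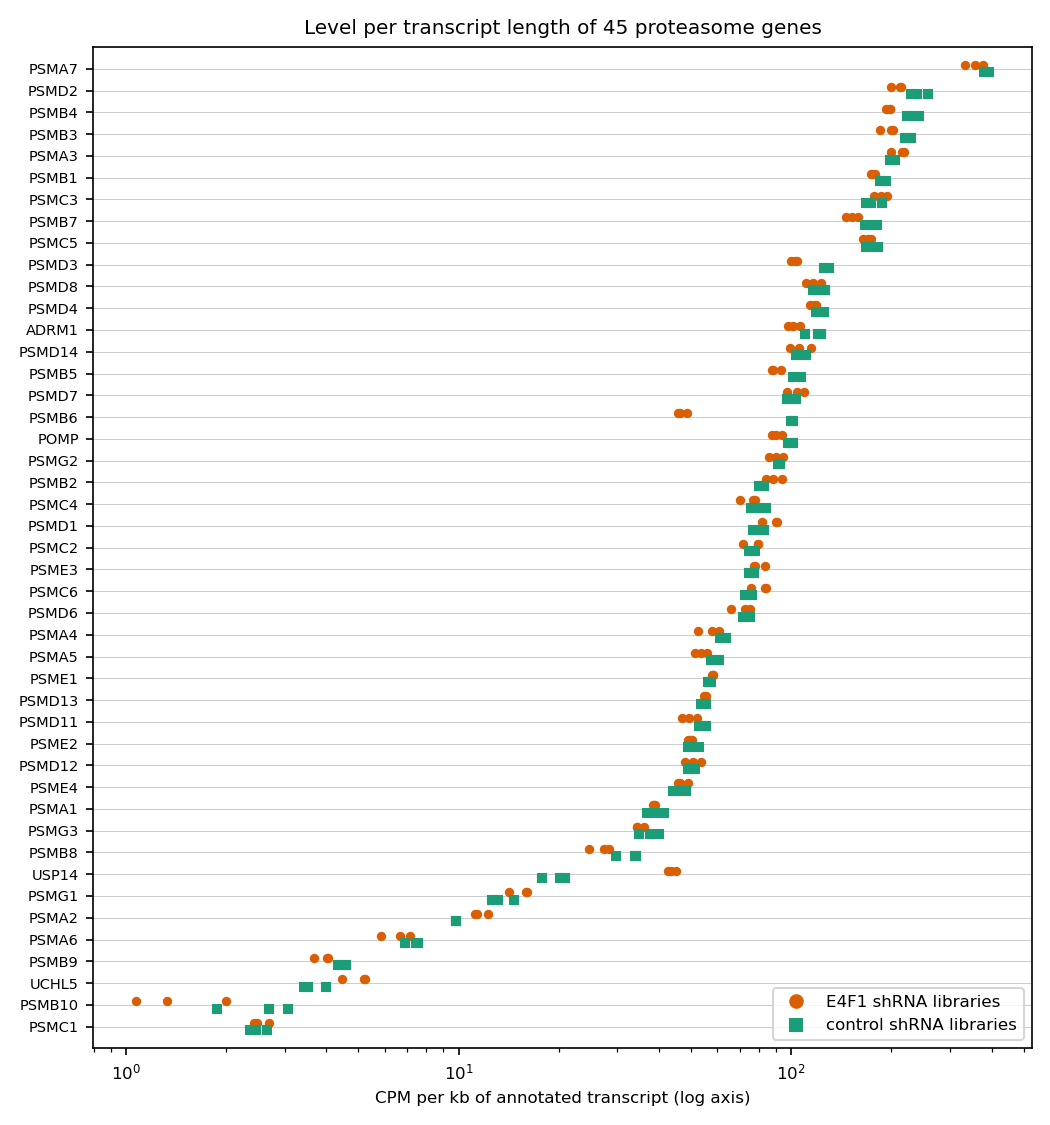
CPM per kilobase of annotated transcript in each library (log axis) for the 45 genes, ordered by their mean with control shRNA; circles are E4F1 shRNA libraries and squares control shRNA libraries. The circles of PSMB6 lie well left of its squares and those of USP14 well right, while most other genes have both together.

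Promoter windows, 250 bases before to 50 after the annotated start, were taken from RefSeq (GRCh38.p14) and matched by symbol for 39 of the 45 genes. PSMA7, PSMB1, PSMB6, PSMB7, PSMD4 and PSMG3 had no entry. Both strands were searched for TGACNNNGC, the core of the antioxidant response element that NFE2L1 and NFE2L2 are known to bind. Some genes have more than 1 window, and a gene was counted once where any of its windows held the motif. It occurs in 16 of the 39 genes (41.0%), against 16.1% of all 27305 genes with a window and 19.4% of the 11400 tested genes among them. The motif TGACGT, the core of sites for ATF and E4F factors, occurs in 5 of 39 (12.8%), against 9.64% and 13.8%. ATTGG, the reversed CCAAT box, occurs in 19 of 39 (48.7%), against 39.7% and 42.8%. These are matches of letters, not measured binding. TGACNNNGC was found in both higher members and in 3 of the 9 lower members with a window, and those 5 are shown with the match in capitals, in the direction of the gene.
USP14: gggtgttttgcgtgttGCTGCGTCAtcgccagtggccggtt
UCHL5: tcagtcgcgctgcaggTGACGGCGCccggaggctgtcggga
PSMB3: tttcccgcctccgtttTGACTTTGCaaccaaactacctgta
PSMD3: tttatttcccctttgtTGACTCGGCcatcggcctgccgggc
ADRM1: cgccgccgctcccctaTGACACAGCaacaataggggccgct

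The windows are at chr18:158515-158555 (plus strand), chr1:193059387-193059427 (minus), chr17:38752621-38752661 (plus), chr17:39980754-39980794 (plus) and chr20:62302743-62302783 (plus). The match in USP14 is on the reverse strand and those shown for the other 4 on the gene's strand. PSMD3 has a further match at chr17:39980824-39980856. The motif was in windows of genes that were higher, lower and equal, among them PSMC5 (log2 −0.03) and PSME4 (log2 0.01).

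The factors that set proteasome gene transcription, and the rest of the pathway, were read from 5 lists of 75 genes, of which 72 were tested. These genes did not take part in the choice of the 45, but the lists were drawn up with earlier results of these data known. In all 5 lists, 9 genes rose and 18 fell, beside the 14.4% of all tested genes in each direction. In edgeR's test over all genes, DDI2, the protease that cleaves and activates NFE2L1, fell. It had 34.9, 32.6 and 32.6 CPM with E4F1 shRNA, against 64.1, 54.5 and 59.9 CPM with control shRNA (log2 −0.83, SE 0.07, adjusted p = 3.21e-07), and 17.5% of its transcript overlaps RSC1A1. Among the 13 regulators 4 fell and none rose. The small Maf partners MAFF (log2 −0.63, edgeR adjusted p = 0.000113) and MAFK (log2 −0.25, 0.00689) and the segregase VCP (log2 −0.19, 0.0134) were the other 3. After adjustment for the cell cycle score DDI2 was at −0.72 (edgeR adjusted p = 1.81e-05), while MAFF was at −0.33 (0.0998), MAFK at −0.11 (0.515) and VCP at −0.13 (0.361). NFE2L1 itself had a log2 fold change of 0.00 (edgeR adjusted p = 0.964) and NFE2L2 one of −0.01 (0.867). The cell cycle score was itself higher in all E4F1 shRNA libraries than in all control shRNA libraries, so the adjusted values share the group difference. Over all genes the adjusted fit called 626 up and 427 down, against 2274 up and 2276 down without the score. A call lost in it is thus not particular to a gene.

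Among 13 tested of 15 further proteasome subunits and partners, 2 rose and 1 fell, beside 14.4% of all tested genes in each direction. PSMD5, the 19S base chaperone, rose. It had 84.6, 83.9 and 79.4 CPM with E4F1 shRNA, against 42.5, 45.9 and 40.2 CPM with control shRNA (log2 0.95, SE 0.06, edgeR adjusted p = 1.81e-08). Its groups were far apart and the log2 fold change was 0.79 after adjustment for the cell cycle score. SEM1, the smallest lid subunit, also rose (log2 0.39, edgeR adjusted p = 0.00049), and with that adjustment it was at 0.18 (edgeR adjusted p = 0.237). PITHD1 fell (log2 −0.35, edgeR adjusted p = 0.000796). The other 10 tested were not past the threshold, and PSMA8, the testis alpha subunit, and PSMB11, the thymus beta subunit, had too few reads to be tested.

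Of 20 tested deubiquitinases off the proteasome, 7 rose and 2 fell, beside 14.4% of all tested genes in each direction. USP1, which acts on monoubiquitinated FANCD2 and PCNA in DNA repair, rose to 268, 274 and 254 CPM with E4F1 shRNA, against 144, 179 and 132 CPM with control shRNA (log2 0.81, SE 0.08, edgeR adjusted p = 1.73e-06). After the same adjustment its log2 fold change was 0.48 (edgeR adjusted p = 6.67e-05). USP8, an endosomal deubiquitinase, rose to 82.6, 82.6 and 82.5 CPM with E4F1 shRNA, against 59.8, 59.6 and 58.5 CPM with control shRNA (log2 0.48, edgeR adjusted p = 8.82e-06). USP48 (log2 0.33) and USP7, which acts on MDM2 (log2 0.20), rose, and USP11 fell (log2 −0.23). Adjusted for the cell cycle score, USP8 was at 0.46 (edgeR adjusted p = 0.000738), USP48 at 0.19 (0.21), USP7 at 0.09 (0.552) and USP11 at −0.25 (0.0811). UCHL1 had too few reads to be tested.

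Of 14 ubiquitin genes, E1 enzymes and shuttle factors, 5 fell, all by small amounts, and none rose. Over all tested genes, 14.4% lay past the threshold in each direction. Among them, the E1 enzyme gene UBA1 fell by 0.19 on the log2 scale (edgeR adjusted p = 0.0124), NPLOC4, a cofactor of VCP, by 0.18 and the shuttle gene UBQLN1 by 0.16. With the cell cycle adjustment these 3 were at −0.09 (edgeR adjusted p = 0.53), −0.20 (0.113) and −0.20 (0.145). Of 12 genes of class I antigen processing, which uses peptides cut by the proteasome, 6 fell and none rose, beside the same 14.4%. The list is short and was drawn up with earlier results known, so no common direction is read from it. TAPBP, the peptide-loading factor tapasin, fell to 88.0, 90.4 and 96.0 CPM with E4F1 shRNA, against 112, 105 and 120 CPM with control shRNA (log2 −0.29, edgeR adjusted p = 0.0016). TAP1, of the peptide transporter, had a log2 fold change of −0.47 (edgeR adjusted p = 0.0031), with E4F1 shRNA library 3 above control library 2. After adjustment for the cell cycle score TAPBP was at −0.14 (edgeR adjusted p = 0.353) and TAP1 at −0.02 (0.955). HLA-C (log2 −0.28) and HLA-B (log2 −0.24) are near copies of each other and uncertain to that extent, and B2M was at −0.16. With the adjustment they were at −0.10, −0.04 and −0.03, none of them past the threshold. NLRC5, the inducer of class I genes, was not past the threshold (log2 −0.24, edgeR adjusted p = 0.202).

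**Figure D4:**
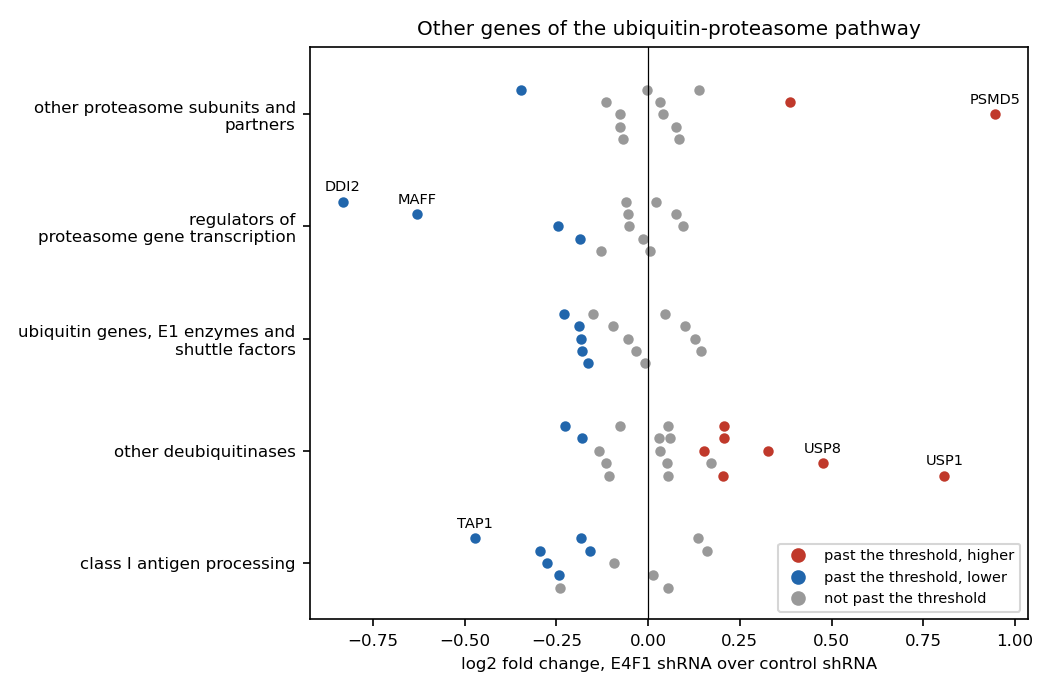
Log2 fold change, E4F1 shRNA over control shRNA (n = 3 libraries each), of the 72 tested genes in the 5 lists outside the 45, one dot per gene, spread vertically only for visibility. PSMD5 at 0.95, USP1 at 0.81 and DDI2 at −0.83 lie farthest from 0.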

How the data were processed

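The files hold raw read counts per gene that the authors deposited for 6 libraries. Per the submitters' processing notes, bcl2fastq 2.20 and STAR 2.5.1b were used with GRCh38; the release of the annotation was not given in the sources used here. The reverse-strand counts were used. Lines that name no gene, 27.1% to 31.7% of the reads of a table, were left out. Symbols, transcripts and UTRs came from GENCODE 29 (57836 of 58219 identifiers matched).

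The test on the counts was the two-sided quasi-likelihood F-test of edgeR 4.0.16 (R 4.3.3) after filterByExpr and TMM scaling, with the Benjamini-Hochberg method over 15765 genes and a threshold of 0.05. The standard error was taken from the F statistic and the log2 fold change. CPM values are TMM-scaled, and levels per kilobase use 1 annotated transcript per gene. The edgeR fit on the group alone was tried on simulated counts in which far fewer genes were changed than were called here. That trial did not cover the other steps or a difference as wide as in these data. In some fits the cell cycle score was a second term beside the group. The other alternatives were DESeq2 1.42.0 (Wald test, or its size factors in edgeR), library totals, other low-count filters, counts ignoring strand, the replicate number as a block and leaving out each library. With 3 libraries a group the smallest exact permutation p is 0.1. The p-values reflect only the spread between the labelled pools.

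The 45 genes, the other lists, the heptamer and the motifs were chosen with earlier results of these data known. Named with values were E4F1, members past the threshold, all members of the catalytic, immunoproteasome, activator, assembly and deubiquitinase roles, the extremes of the other roles, and up to 5 called genes per pathway list by smallest adjusted p. PSMB1, PSMB2, PSMD1, PSMD4, PSMD14, NFE2L1, NFE2L2, NLRC5 and the genes named beside a sequence, a length or a neighbour were added after their values were seen. A few genes named by this rule are not reported here.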

Additional observations from a re-analysis of the deposited data

How the results depend on the processing

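No member or pathway gene past the threshold in the main fit, that on the group alone with all libraries, changed sign under any alternative run. After adjustment for the cell cycle score, members past the threshold numbered 1 up (2 without it) and 3 down (11), pathway genes 3 up (9) and 3 down (18), and the median log2 fold change of the members was −0.0784. Over all genes the same fit called 626 up (2274 without the score) and 427 down (2276). The score was itself higher in all E4F1 shRNA libraries than in all control shRNA libraries, so in this fit it shares the group difference. USP14, PSMB6, PSMB3 and PSMD3 kept their calls and the other 9 called members lost them. Their log2 fold changes were then −0.25 for ADRM1, −0.18 for PSMB7, −0.18 for PSMB5 and −0.19 for PSMB4, −0.13 for PSMD2, −0.09 for PSMA5, −0.10 for PSMB8, −0.17 for PSMB10 and 0.21 for UCHL5. Leaving out each library in turn gave 2 to 6 members up and 7 to 11 down, a median of −0.0694 to −0.0123, and 5 to 12 pathway genes up and 7 to 17 down. Over all genes the same fits called 1605 to 2833 up and 1419 to 2537 down. The extremes were 4 members up without control library 2, 6 without E4F1 shRNA library 3 and 7 down without E4F1 shRNA library 1. Over all genes those runs called 2833 up, 2072 up and 1419 down, in that order. Pathway genes numbered 5 up without control library 3, and 7 down without E4F1 shRNA library 1 and 11 without control library 1 or 3. PSMA5, PSMB7, PSMB8, PSMB10 and ADRM1 each lost their call in at least 1 of these fits, and PSMB2, PSMC6, PSMD1 and PSMG1 passed the threshold without E4F1 shRNA library 3. Libraries with equal replicate numbers had correlations of deviations from the group mean of 0.00704, 0.0471 and 0.0477. Those of the other pairs ran from −0.108 to 0.077. With 3 libraries a group, these values cannot decide whether equal numbers mark pools handled together. With the replicate block, 3 members were up and 11 down, beside 2419 up and 2446 down over all genes. DESeq2's Wald test gave 3 up and 9 down, without PSMA5 and PSMB10, beside 2009 up and 1586 down over all genes. Other scalings, low-count filters and counts ignoring strand moved no count of calls by over 1.5 times. The role sums and the immunoproteasome share moved by less than 1 SD under every alternative run. With 3 libraries a group, leaving 1 out cannot move a group mean by 1 SD. The share is a ratio within each library, so the scaling cannot move it. No stability is therefore read from these moves. PSMB10 and PSMB9, at 22 to 56 reads a library, are limited by depth.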
